A study of Danio rerio with 6 samples.

Results

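The mitochondrial genome encodes 13 protein subunits of the respiratory chain, and their transcripts were followed here in the kidney marrow of adult zebrafish, where fish make their blood cells. Members were the rows of the expression table whose gene symbol begins with mt-, in upper or lower case. All 13 protein-coding genes were found in this way among 32057 genes, of which 28988 had a symbol. The 2 ribosomal RNA genes and 22 transfer RNA genes of the mitochondrial genome matched no row by symbol and are not analysed here. Bulk RNA sequencing compared 3 libraries from fish heterozygous for the nz171 allele of rad21a (rad21+/-), a nonsense mutation in exon 8, with 3 libraries from wild-type siblings of the same in-crosses. A library holds marrow RNA pooled from 3 adults, and the libraries are named here heterozygous pools 1 to 3 and wild-type pools 1 to 3. Age and sex of the animals are not given in the sources, and nothing says that equal pool numbers mark a shared clutch.

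Mitochondrial DNA is transcribed from both strands as long precursors, which are cut mostly at the transfer RNAs that lie between the other genes. The released messenger RNAs, most of them polyadenylated in the organelle, are translated there by mitochondrial ribosomes. Their products are core subunits of complexes I, III and IV and of ATP synthase (complex V), which are completed with many subunits encoded in the nucleus. Kidney marrow mixes red cells, which keep their nucleus in fish, with white cells and kidney tissue. In such a bulk sample fewer cells of a mitochondria-rich type and less mitochondrial RNA per cell cannot be told apart.

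Values are TPM, transcript abundances corrected for gene length and scaled to a fixed total in each library. Levels of different genes can be set side by side on this scale, with uncertainty for genes whose reading frames overlap. Uncertainty also holds for mt-nd6, in whose value reads of both strands may be mixed. TPM keeps no read depth, and the depth of the libraries is unknown. The level of rad21a was 67.4, 61.6 and 62.0 TPM in heterozygous pools 1 to 3, against 110.1, 73.9 and 108.2 TPM in wild-type pools 1 to 3, with no overlap (limma log2 fold change -0.58, adjusted p = 0.30). All 4 red cell, 4 neutrophil, 6 B cell and 3 thrombocyte markers found in the table were above 0 in every library. The libraries also carried RNA of other tissues. The 22 egg and oocyte markers summed to between 6.83 and 230.0 TPM in the heterozygous pools, against 325 TPM in wild-type pool 1, 19802 TPM in wild-type pool 2 and 5614 TPM in wild-type pool 3. For the 10 interrenal markers, of the tissue that makes steroids within the kidney, the sum was 9.70, 502 and 771 TPM in heterozygous pools 1 to 3, against 4.49 to 145 TPM in the wild type. These markers did not move together. In wild-type pool 2, 107 of the 145 TPM came from CYP11A1 (ENSDARG00000002347), which was at 1.34 to 3.48 TPM in the heterozygous pools. STAR was at 0.37 to 1.33 TPM in the wild-type pools.

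The 13 mitochondrial mRNAs together held 4.39%, 5.41% and 6.07% of the TPM in heterozygous pools 1 to 3, against 3.82%, 4.24% and 5.94% in wild-type pools 1 to 3. Their share averaged 5.29 ± 0.849% in the heterozygotes and 4.67 ± 1.12% in the wild type (SD, n = 3 each). The groups overlapped, and the difference of 0.619 percentage points was smaller than either SD. It was 0.197 without wild-type pool 1 and 1.26 without wild-type pool 3, and it turned to -0.283 without heterozygous pools 2 and 3, with 1 heterozygous library left. Within each genotype the pools spread widely, and over all libraries wild-type pool 1 had the lowest share and heterozygous pool 3 the highest. Globin transcripts, which take up much of the fixed total, held 8.16%, 18.8% and 12.2% of the TPM in heterozygous pools 1 to 3, against 22.2%, 6.18% and 12.5% in wild-type pools 1 to 3. As a share of the TPM outside globin genes, the mitochondrial mRNAs held 6.12 ± 1.17% in the heterozygotes and 5.41 ± 1.22% in the wild type (SD, n = 3 each), which also overlapped.

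**Figure D1:**
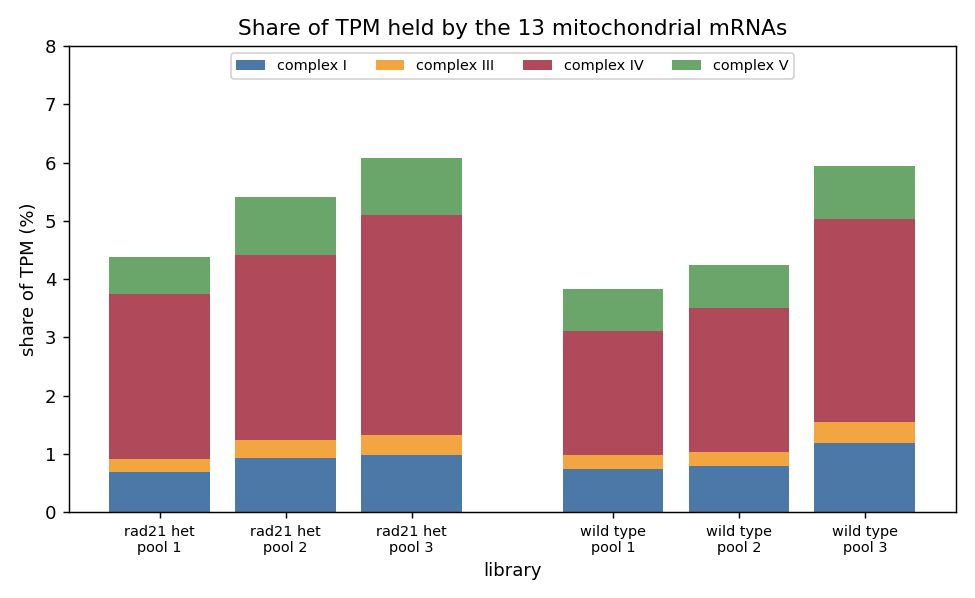
Bars give the share of TPM (%) held by the 13 mitochondrial mRNAs in each library, stacked by respiratory complex, with the heterozygous pools on the left and the wild-type pools on the right. The totals run from 4.39% to 6.07% in the heterozygotes and from 3.82% to 5.94% in the wild type, and complex IV is the tallest block in each bar.

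Mitochondrial mRNAs were among the most abundant transcripts of the tissue. All 13 ranked within the top 500 genes in each of the 6 libraries, and 4 of them within the top 50. The highest was mt-co2, which ranked between 7 and 9, and the lowest was mt-nd4l, which ranked between 168 and 262. On the TPM scale, complex IV mRNAs averaged between 8910 and 11668 TPM over the 6 libraries, against 591 to 2365 TPM for complex I mRNAs. By mean level the order was mt-co2, mt-co3, mt-co1, mt-atp6, mt-cyb, mt-nd3, mt-atp8, mt-nd1, mt-nd2, mt-nd6, mt-nd4, mt-nd5 and mt-nd4l. The places of mt-atp6, mt-atp8, mt-nd4, mt-nd4l and mt-nd6 in that order are uncertain. Reading frames of the first 4 overlap in pairs, and the sources do not say how reads over the overlaps were counted. For mt-nd6, reads of both strands may be mixed. Several neighbours in the order changed places between libraries. The level of mt-co3 was above that of mt-co1 in 4 of 6 libraries, and that of mt-nd3 above mt-atp8 in 4 of 6. Steps from mt-atp8 to mt-nd1, from mt-nd1 to mt-nd2, from mt-nd2 to mt-nd6 and from mt-nd5 to mt-nd4l, held in 5 of 6 libraries. The other steps held in all 6, the widest of them from mt-atp6 to mt-cyb, with ratios of their TPM between 1.91 and 2.21.

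**Figure D2:**
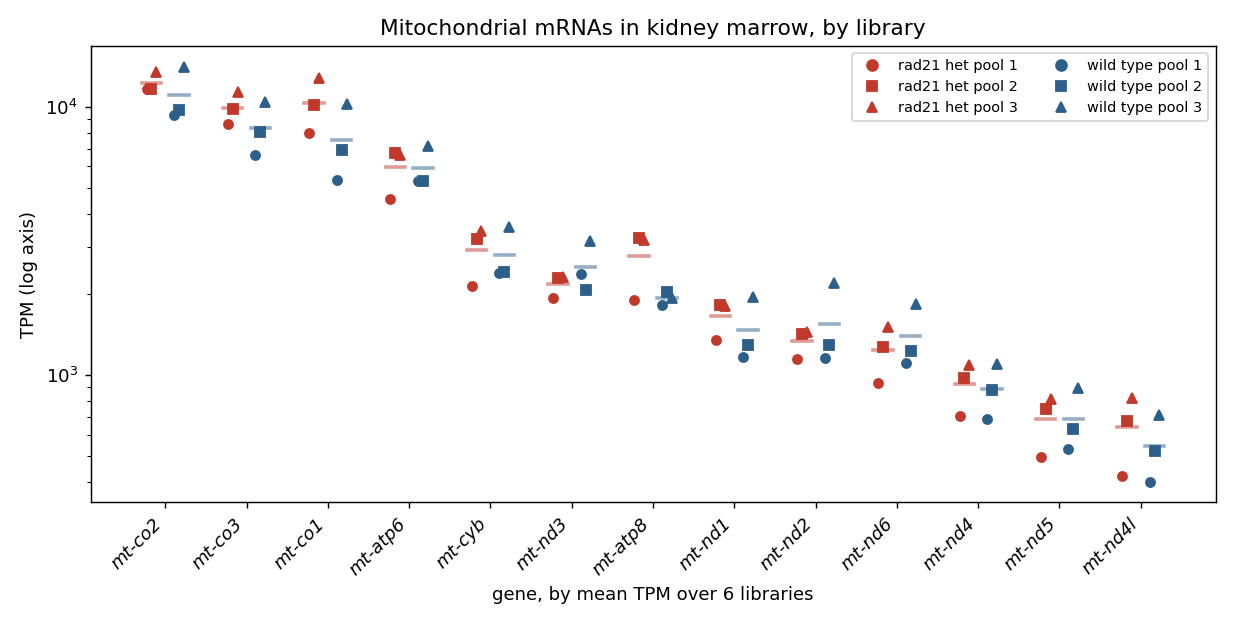
Points give the TPM of each mitochondrial mRNA (log axis) in each library, red for the heterozygous and blue for the wild-type pools, and short lines give group means. Genes run from mt-co2, with a mean of 11668 TPM, to mt-nd4l, with 591 TPM, and red and blue points overlap for all 13.

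Among the 13 mRNAs none passed the threshold for a genotype difference, an adjusted p under 0.05 in limma over all 16537 tested genes. That threshold was passed by 1.37% of all tested genes. An unadjusted limma p under 0.05 was reached by 0 of 13 as well, against 15.0% of all tested genes. In none of the 13 did the groups separate without overlap, which 21.7% of the tested genes did. Log2 fold changes of the 13 ran from -0.20 to 0.48, 10 positive and 3 negative. Their median was 0.06, beside -0.02 for all tested genes, of which 48.1% were positive. Standard errors lay between 0.20 and 0.32 on the log2 scale, so the 95% interval of mt-nd4, for example, reached from 0.680 to 1.59 times the wild-type level. All 13 passed the filter on low values.

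Complex I, the NADH dehydrogenase that feeds electrons into the chain, takes 7 of the 13 subunits, and all 7 build its membrane arm, which moves protons. The gene mt-nd1 (ENSDARG00000063895), whose product sits where the arm joins the part that takes up electrons, stood at 1347, 1821 and 1809 TPM in heterozygous pools 1 to 3, against 1167, 1295 and 1964 TPM in wild-type pools 1 to 3. Levels of mt-nd2 (ENSDARG00000063899), one of the antiporter-like proton-moving subunits, were 1145, 1429.5 and 1454 TPM in the heterozygous pools, against 1155, 1291 and 2208 TPM in the wild-type pools. For the small subunit gene mt-nd3 (ENSDARG00000063914) they were 1936, 2312 and 2319 TPM in the heterozygous pools, against 2386, 2075 and 3161 TPM in the wild-type pools. For all 3 of these mRNAs wild-type pool 3 was the highest library, and the groups overlapped. The log2 fold changes were 0.19 ± 0.25, -0.16 ± 0.28 and -0.20 ± 0.21 (SE), with limma adjusted p = 0.72, 0.80 and 0.66.

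The other 4 complex I mRNAs follow mt-nd3 in the gene order of the mitochondrial genome. Transcripts of mt-nd4l (ENSDARG00000063916) and mt-nd4 (ENSDARG00000063917) share a messenger RNA in vertebrates, with reading frames that overlap. The level of mt-nd4l was 422, 676 and 819.8 TPM in heterozygous pools 1 to 3, against 401, 522 and 707 TPM in wild-type pools 1 to 3. That of mt-nd4, an antiporter-like subunit, was 703, 978 and 1087 TPM in the heterozygous pools, against 685, 877 and 1103 TPM in the wild-type pools. In both genotypes pool 3 was the highest for these mRNAs and pool 1 the lowest, and the log2 fold changes were 0.22 ± 0.32 and 0.06 ± 0.26 (SE, limma adjusted p = 0.76 and 0.93). The gene mt-nd5 (ENSDARG00000063921), for the antiporter-like subunit at the far end of the arm, was at 497, 748 and 811 TPM in the heterozygous libraries, against 531, 632 and 893 TPM in the wild-type pools. Its log2 fold change was 0.00 ± 0.28 (SE, limma adjusted p = 0.996). Unlike the other 12 genes, mt-nd6 (ENSDARG00000063922) is encoded on the opposite strand of the mitochondrial genome. It was listed at 935, 1276 and 1507 TPM in the heterozygous pools, against 1109, 1235 and 1842 TPM in the wild-type pools. Its difference was -0.16 ± 0.27 on the log2 scale (SE), at limma adjusted p = 0.79. The sources name no stranded library protocol and give no strand setting of the counting. Reads of precursors from the other strand at the same place may be mixed in, so this value cannot be read as mt-nd6 mRNA alone.

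Complex III passes electrons from ubiquinol to cytochrome c, and its cytochrome b is the single subunit of it made in the organelle. The level of mt-cyb (ENSDARG00000063924) was 2143, 3208 and 3462 TPM in heterozygous pools 1 to 3, against 2404, 2426 and 3575 TPM in wild-type pools 1 to 3. Its log2 fold change was 0.06 ± 0.26 (SE, limma adjusted p = 0.92), and the groups spanned nearly the same range.

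Complex IV, cytochrome c oxidase, reduces oxygen, and its 3 mitochondrial subunits form the catalytic core. The gene mt-co1 (ENSDARG00000063905), for the subunit that binds the haem groups where oxygen is reduced, stood at 8027, 10135 and 12773 TPM in heterozygous pools 1 to 3, against 5356, 6887 and 10282 TPM in wild-type pools 1 to 3. Heterozygous pool 3 was the highest library and wild-type pool 1 the lowest, 2.38-fold apart, the widest range among the 13. Levels averaged 10312 ± 2378 TPM in the heterozygotes and 7508 ± 2521 TPM in the wild type (SD, n = 3 each). The log2 fold change of 0.48 ± 0.29 (SE) was the largest of the 13 and did not pass the threshold (limma adjusted p = 0.46), with a 95% interval from -0.20 to 1.17. Without wild-type pool 1 it was 0.27, and without wild-type pool 3 it was 0.74.

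The other subunits of the catalytic core had smaller differences. Levels of mt-co2 (ENSDARG00000063908), for the subunit that receives electrons from cytochrome c, were 11635, 11661 and 13501 TPM in heterozygous pools 1 to 3, against 9321, 9752 and 14134 TPM in wild-type pools 1 to 3. Its range over the 6 libraries was the narrowest of the 13, 1.52-fold. The gene mt-co3 (ENSDARG00000063912), for the subunit of the core without a metal centre, had 8629, 9836 and 11381 TPM in the heterozygous pools, against 6607, 8054 and 10452 TPM in the wild-type pools. Log2 fold changes were 0.17 ± 0.20 for mt-co2 and 0.27 ± 0.21 for mt-co3 (SE, limma adjusted p = 0.70 and 0.58). For mt-co3 the sign turned to negative under quantile normalization, at -0.03.

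ATP synthase has 2 mitochondrial subunits, both in its membrane part, and their reading frames overlap on a shared messenger RNA in vertebrates. The level of mt-atp6 (ENSDARG00000063911), for the subunit that forms the proton channel, was 4537, 6728 and 6604 TPM in heterozygous pools 1 to 3, against 5303, 5293 and 7175 TPM in wild-type pools 1 to 3. Its log2 fold change was 0.00 ± 0.22 (SE), at limma adjusted p = 0.999 and with a 95% interval from -0.53 to 0.54. Its short neighbour mt-atp8 (ENSDARG00000063910), for a small subunit needed for assembly, had 1904, 3256 and 3179 TPM in the heterozygous pools, against 1826, 2037 and 1940.3 TPM in the wild-type pools. Heterozygous pools 2 and 3 lay above all other libraries and heterozygous pool 1 within the range of the wild type. The log2 fold change of mt-atp8 was 0.48 ± 0.24 (SE, limma adjusted p = 0.41), with the smallest p of the 13. Heterozygous pools 2 and 3 also had the highest interrenal marker sums of the 6 libraries, mostly from STAR, and the part of that tissue in the value was not tested. Without both pools, with 1 heterozygous library left, the log2 fold change of mt-atp8 was -0.02. Without heterozygous pool 1 it was 0.74 (limma adjusted p = 0.26).

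**Figure D3:**
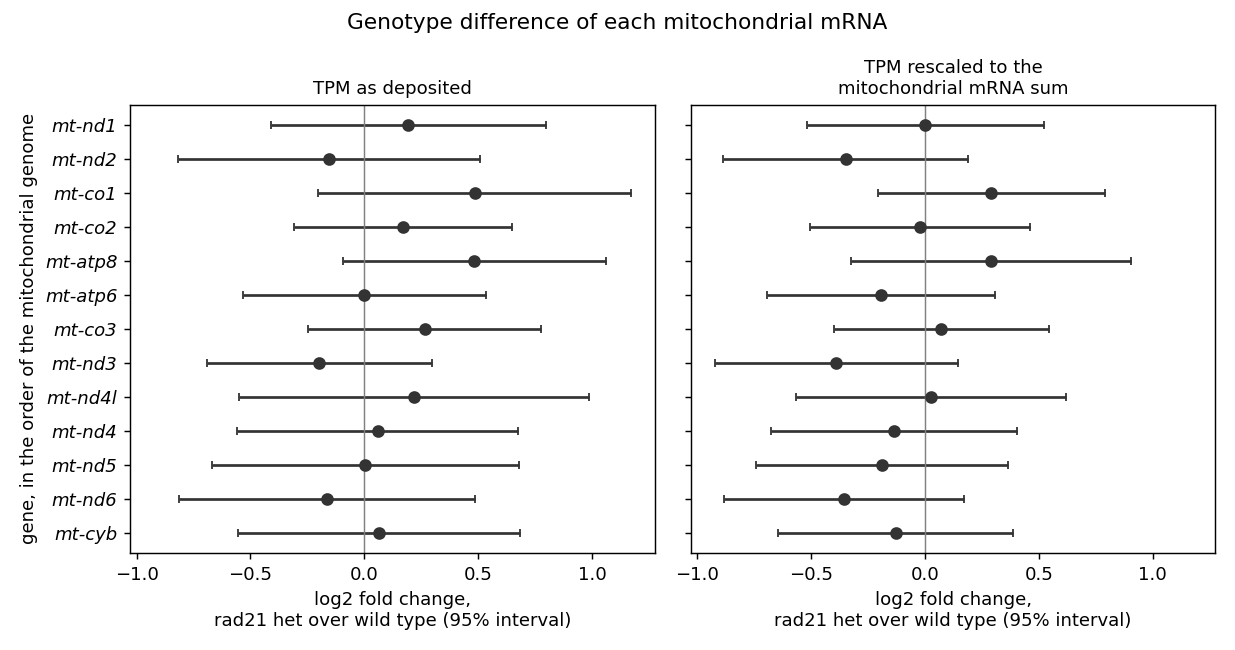
Points give the log2 fold change of each mitochondrial mRNA, heterozygous over wild type, with 95% intervals from limma, for TPM as deposited on the left and for TPM rescaled to the mitochondrial mRNA sum on the right. Every interval in both panels includes 0, and the points on the left run from -0.20 for mt-nd3 to 0.48 for mt-co1.

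The libraries moved the 13 mRNAs largely together. Heterozygous pool 1 was the lowest heterozygous library for all 13, and wild-type pool 3 the highest wild-type library for 12, with mt-atp8 as the exception. Over all 6 libraries, wild-type pool 3 was the highest for 9 mRNAs and heterozygous pool 3 for 3. Marker sums of other cells stood at different levels in these pools. Neutrophil markers summed to 49499, 18663 and 19018 TPM in heterozygous pools 1 to 3, against 15691 to 23335 TPM in the wild type. In heterozygous pool 1 lyz made up 41724 TPM of that sum and npsn 7722 TPM. MMP9 and mmp13a did not follow the sum. Both were highest in wild-type pool 3, at 72.5 and 4.84 TPM, against 52.2 and 0.999 TPM in heterozygous pool 1. Kidney tubule markers, of which 4 of 4 were above 0 in every library, summed to 361, 377 and 577 TPM in heterozygous pools 1 to 3, against 361, 203 and 519 TPM in wild-type pools 1 to 3. In both genotypes pool 3 was the highest for the tubule marker sum, most of which was CDH17, and for the mitochondrial mRNA sum. The single tubule markers differed among the heterozygous pools. CDH17 and CUBN were highest in pool 3, whereas SLC12A1 and SLC12A3 were highest in pool 1, at 56.2 and 38.0 TPM, against 52.9 and 35.8 TPM in pool 3. The part of tubule cells in the mitochondrial values was not tested.

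Because a shared rise or fall of all mitochondrial mRNAs cancels within a library, their composition was also described, as the share of each mRNA in the sum of the 13. The 7 complex I mRNAs held 15.9%, 17.1% and 16.2% of that sum in heterozygous pools 1 to 3, against 19.4%, 18.7% and 19.98% in wild-type pools 1 to 3. Their share averaged 16.4 ± 0.617% in the heterozygotes and 19.4 ± 0.640% in the wild type (SD, n = 3 each), and the groups did not overlap. The difference of -2.98 percentage points lay between -3.33 and -2.68 with any 1 library left out. The sum over a group of mRNAs chosen with results known was given no test. A share of the sum also moves with the other members of the sum. As a share of all TPM, complex I mRNAs held 0.868 ± 0.149% in the heterozygotes and 0.908 ± 0.244% in the wild type (SD, n = 3 each), 0.956 times the wild-type mean, and the groups overlapped. Complex IV mRNAs held 3.25 ± 0.475% of all TPM in the heterozygotes and 2.69 ± 0.707% in the wild type (SD, n = 3 each), 1.21 times the wild-type mean, also with overlap. Complex IV mRNAs held 64.5%, 58.5% and 62.0% of the sum in the heterozygous pools, against 55.6%, 58.3% and 58.7% in the wild-type pools, with overlap. Shares of complex V and of complex III also overlapped.

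Of the 13 mRNAs, 5 had shares that did not overlap between the genotypes. On the scale set to the mitochondrial mRNA sum, 20.5% of all tested genes did not overlap, 14.8% lower and 5.73% higher in the heterozygotes. There the median log2 fold change of all tested genes moved to -0.18. The 13 mRNAs form that scale, so a rise or fall shared by them cancels for them and is passed on to all other genes. These percentages are thus no like background for the 5. The mRNA mt-co1 was the one with a higher share, 18.3%, 18.7% and 21.0% of the sum in heterozygous pools 1 to 3, against 14.0%, 16.3% and 17.3% in wild-type pools 1 to 3. Of complex I, mt-nd6 held 2.13%, 2.36% and 2.48% in the heterozygous pools, against 2.90%, 2.91% and 3.10% in the wild-type pools. The mt-nd6 value, in which reads of both strands may be mixed, also enters the complex I sum. The share of mt-nd2 was 2.61%, 2.64% and 2.40% in the heterozygous pools, against 3.02%, 3.05% and 3.71% in the wild-type pools. For each of the 5 the mean shares differed by more than either SD. They were picked because their groups did not overlap, so this adds no separate support. The shares of mt-nd5 came close to overlap, at 1.38% in the highest heterozygous pool against 1.39% in the lowest wild-type pool. The share of mt-nd3 was 4.41%, 4.28% and 3.82% in the heterozygous pools, against 6.24%, 4.90% and 5.32% in the wild-type pools. Complex I was not uniform, since mt-nd1 held 3.14 ± 0.203% in the heterozygotes and 3.14 ± 0.145% in the wild type (SD, n = 3 each).

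With a fit of all 16537 genes on that scale, limma called 0 of the 13 mRNAs, against 1.42% of all tested genes. The log2 fold changes were -0.39 ± 0.23 for mt-nd3, -0.36 ± 0.23 for mt-nd6, -0.35 ± 0.24 for mt-nd2 and 0.29 ± 0.22 for mt-co1 (SE), with limma adjusted p = 0.49, 0.52, 0.54 and 0.58. Of 8 ratios between single members, chosen after their values were seen and given no test, 5 did not overlap between the genotypes and 3 did. How many of all possible ratios among the members separate was not computed, so this count has no background. Of the 5, all but mt-atp8 over mt-atp6 hold mt-nd2 or mt-nd6, whose shares already separated, so they partly restate the shares. Levels of mt-co1 over mt-nd2 gave ratios of 7.01, 7.09 and 8.78 in heterozygous pools 1 to 3, against 4.64, 5.33 and 4.66 in wild-type pools 1 to 3. Those of mt-nd2 over mt-nd1, both early genes of complex I, gave 0.850, 0.785 and 0.804 in the heterozygous pools, against 0.990, 0.997 and 1.12 in the wild-type pools. On the shared messenger RNA of ATP synthase, mt-atp8 over mt-atp6 gave 0.420, 0.484 and 0.481 in the heterozygous pools, against 0.344, 0.385 and 0.270 in the wild-type pools. The ratios of mt-nd6 over mt-nd5 and over mt-cyb were lower in the heterozygotes, at 1.81 ± 0.0958 and 0.423 ± 0.0220, against 2.04 ± 0.0713 and 0.495 ± 0.0295 in the wild type (SD, n = 3 each). Within complex IV, mt-co1 over mt-co3 overlapped, at 1.03 ± 0.0961 in the heterozygotes and 0.883 ± 0.0899 in the wild type (SD, n = 3 each). So did mt-co1 over mt-co2, at 0.835 ± 0.131 in the heterozygotes and 0.669 ± 0.0828 in the wild type (SD, n = 3 each). The ratio of mt-nd4l over mt-nd4 on the other shared messenger RNA overlapped, at 0.681 ± 0.0777 in the heterozygotes and 0.607 ± 0.0297 in the wild type (SD, n = 3 each). The sources do not say how reads over the overlapping reading frames were counted, so the split between mt-atp8 and mt-atp6 and between mt-nd4l and mt-nd4 is uncertain. The ratios with mt-nd6 may hold reads of both strands.

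**Figure D4:**
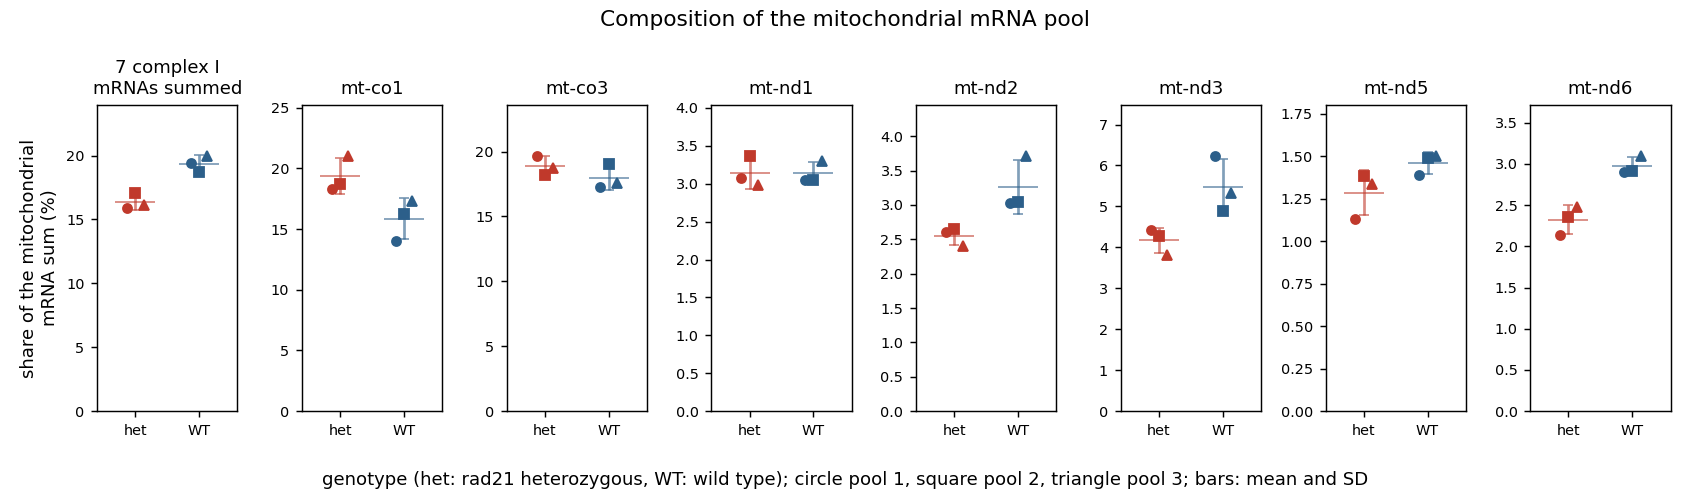
Points give the share (%) of the mitochondrial mRNA sum in each library for the 7 complex I mRNAs summed and for 7 single mRNAs, with mean and SD, heterozygous in red and wild type in blue. The genotypes separate for the complex I sum, mt-co1, mt-nd2, mt-nd3, mt-nd5 and mt-nd6, and overlap for mt-co3 and mt-nd1.

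Marker sums of other cells that also separated the genotypes without overlap were those of egg, skeletal muscle and B cells. Skeletal muscle markers, of which 10 of 10 were above 0 in every library and 2 stayed under 1 TPM everywhere, summed to 18.0 to 53.2 TPM in the heterozygous pools, against 103 to 185 TPM in the wild-type pools. B cell markers summed to 340.3 to 1208 TPM in the heterozygous pools, against 80.0 to 228 TPM in the wild-type pools. Single markers did not all follow their sums. PAX5 of the B cell list and actn3a and myhz2 of the muscle list overlapped, and the other markers of these lists did not. Some egg markers, such as ZAR1 and zp3, also overlapped. Of the 22 egg markers 20 were above 0 in every library. Without wild-type pools 2 and 3, which had the highest egg marker sums, the difference in the complex I share of the mitochondrial sum was -3.04 percentage points, with 1 wild-type library left. The parts of egg, muscle and B cells in the composition were not tested.

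Nuclear genes that serve the same complexes and the expression of the mitochondrial genome gave 0 calls among 253 tested members of 11 lists, against 1.37% of all tested genes, and 13 at an unadjusted limma p under 0.05, which 15.0% of all tested genes reached. Nuclear subunits of oxidative phosphorylation summed to 25401, 28104 and 33783 TPM in heterozygous pools 1 to 3, against 21295, 30274 and 28441 TPM in wild-type pools 1 to 3. The mitochondrial sum was 1.82 ± 0.0998 times the nuclear sum in the heterozygotes and 1.76 ± 0.346 times in the wild type (SD, n = 3 each). That ratio was lowest in wild-type pool 2, at 1.40, and highest in wild-type pool 3, at 2.09, with all heterozygous pools between. Of 91 tested nuclear subunits 70 had a positive log2 fold change, with a median of 0.18. Over all tested genes 48.1% were positive, with a median of -0.02. Counts of signs were given no test.

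**Figure D5:**
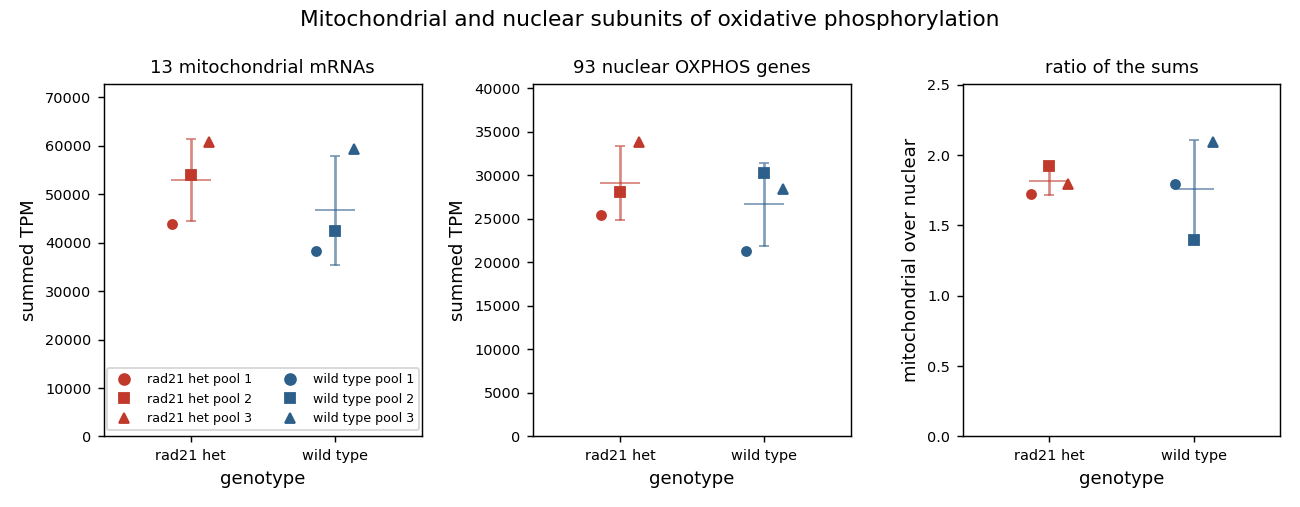
Points give the summed TPM of the 13 mitochondrial mRNAs, the summed TPM of 93 nuclear genes of oxidative phosphorylation and the ratio of these sums in each library, with mean and SD, heterozygous pools left and wild-type pools right in each panel. The genotypes overlap in all 3 panels, and the ratio runs from 1.40 to 2.09 in the wild type and from 1.73 to 1.92 in the heterozygotes.

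By complex, 26 of 37 nuclear complex I subunits had a positive log2 fold change, with a median of 0.09, beside 48.1% positive over all tested genes. The smallest p among them belonged to ndufab1b, the acyl carrier protein, at 166 ± 15.7 TPM in the heterozygotes and 129 ± 28.9 TPM in the wild type (SD, n = 3 each, limma adjusted p = 0.46), and to NDUFA10, at a log2 fold change of 0.32 (limma adjusted p = 0.48). Complex II has no mitochondrially encoded subunit, and 2 of its 4 tested genes were positive, with SDHB at a log2 fold change of 0.53 and SDHA at 0.15 (limma adjusted p = 0.40 and 0.72). All 9 complex III genes were positive, with a median of 0.26, led by UQCRH at 0.52 and CYC1, cytochrome c1, at 0.35 (limma adjusted p = 0.39 and 0.43). In complex IV 16 of 22 were positive, with a median of 0.20, and cox6b1 and cox8a were at 1.17 and 0.67 (limma adjusted p = 0.13 and 0.24). In complex V 17 of 19 were positive, with a median of 0.23, and ATP5MC3, of the rotor ring, and ATP5F1D were at 0.60 and 0.42 (limma adjusted p = 0.24 and 0.36).

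Genes for transcription and replication of mitochondrial DNA had 7 positive and 7 negative members of 14. MTERF4, a mitochondrial ribosome assembly factor of the transcription terminator family, and MGME1, a nuclease of mitochondrial DNA, had the smallest p, at log2 fold changes of 0.66 and -0.91 (limma adjusted p = 0.25 and 0.45). Genes for processing, modification and decay of mitochondrial RNA had 21 of 32 negative, with a median of -0.23. LRPPRC, which binds and stabilises mitochondrial messenger RNAs, stood at 26.2, 26.3 and 26.2 TPM in heterozygous pools 1 to 3, against 14.3, 17.3 and 18.0 TPM in wild-type pools 1 to 3. The groups did not overlap, and the log2 fold change of 0.64 ± 0.19 (SE) did not pass the threshold (limma adjusted p = 0.22). MRM2, a methyltransferase of the mitochondrial large ribosomal RNA, had 2.09, 2.296 and 2.08 TPM in the heterozygous pools, against 2.28, 22.7 and 8.82 TPM in the wild-type pools. The 2 wild-type pools with high MGME1 and MRM2 are those with the highest egg marker sums, and the part of egg RNA was not tested.

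Mitochondrial ribosomal protein genes had 34 of 75 positive, with a median of -0.05, and summed to 3537, 3655 and 3894 TPM in heterozygous pools 1 to 3, against 2497, 6134 and 3917 TPM in wild-type pools 1 to 3. Wild-type pool 2 was the highest library of that sum and wild-type pool 1 the lowest. The egg marker sum was also highest in wild-type pool 2, and the part of egg RNA was not tested. MRPS15 and MRPL13, of the small and the large subunit, had the smallest p, at 0.72 and 0.45 (log2 fold change, limma adjusted p = 0.28 and 0.38). Aminoacyl-tRNA synthetases of mitochondria had 12 of 16 negative, with a median of -0.18. HARS2 and PARS2 were at 0.67 and -1.10 (limma adjusted p = 0.20 and 0.41). PARS2 stood at 4.32, 26.6 and 12.4 TPM in wild-type pools 1 to 3, against 4.12 to 5.42 TPM in the heterozygous pools. Regulators of mitochondrial biogenesis had 5 of 9 positive. NRF1 and pprc1, both of which drive genes for mitochondrial proteins, were at -0.73 and -1.02 (limma adjusted p = 0.36 and 0.40). NRF1 had 8.05, 19.5 and 12.3 TPM in wild-type pools 1 to 3, against 6.52 to 7.82 TPM in the heterozygous pools. For pprc1 these were 4.91, 24.6 and 11.6 TPM, against 4.58 to 5.68 TPM. Wild-type pools 2 and 3, where PARS2, NRF1 and pprc1 were highest, have the highest egg marker sums, and the part of egg RNA was not tested. Genes taken as signs of mitochondrial mass had 10 of 16 positive, with a median of 0.23, and PHB2, a prohibitin of the inner membrane, and HSPE1, a chaperonin of the matrix, were each at 0.79 (limma adjusted p = 0.16 and 0.20). PHB2 averaged 86.2 ± 7.12 TPM in the heterozygotes and 49.8 ± 7.61 TPM in the wild type (SD, n = 3 each), without overlap. Without wild-type pool 1, limma called 5 of 253 tested members of the 11 lists, against 5.28% of all tested genes in that fit, of whose calls 21.6% were higher in the heterozygotes. The 5 were all lower in the heterozygotes: GTPBP3, MRM1, MRM2, RARS2 and PARS2. In that fit their log2 fold changes ran from -2.36 for GTPBP3 to -1.40 for MRM1, and the wild-type libraries left in it are those with the highest egg marker sums.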

How the data were processed

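Whole kidney marrow of 3 heterozygous and 3 wild-type pools was profiled; TruSeq RNA version 2 libraries were made from total RNA, per the labels' protocols. The submitters' processing notes list HISAT2 2.0.4, FastQC, featureCounts and build GRCz11. The authors deposited TPM, 1 table for all libraries; annotation, gene lengths and strand setting are not stated in the sources. Read depth is unknown, so no counting interval was computed. Gene symbols were looked up by Ensembl identifier; no coordinates are given.

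Genes with at least 1 TPM in at least 3 libraries were tested on log2(TPM + 1) with limma 3.58.1 under R 4.3.3, with genotype as the term, a variance trend and two-sided p-values adjusted by the Benjamini-Hochberg method over all tested genes. Fold changes are on that scale. All 13 members are named, with 2 genes of smallest p per nuclear list and any called. Members and lists were chosen with earlier results of these data known. List members matched by symbol, with or without a copy suffix. The fit was tested on simulated data, drawn with independent noise per gene and library. Differences in content between pools, such as in egg or globin RNA, were not simulated. P-values measure the spread between pools. Alternatives numbered 17. The planned ratio of mitochondrial ribosomal RNAs was not computed, because no row matched them.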

Additional observations from a re-analysis of the deposited data

How the results depend on the processing

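In all 17 alternatives 0 of the 13 mitochondrial mRNAs passed the threshold, and mt-co1 and mt-nd3 kept their sign. Signs of the other members turned in some. Under quantile normalization mt-nd2, mt-atp6, mt-co3, mt-nd6 and mt-cyb were at 0.052, -0.052, -0.034, 0.092 and -0.057 (log2 fold change). With library totals taken without globin genes, egg markers and the 13 mitochondrial mRNAs, mt-atp6 was at -0.015 and mt-nd5 at -0.011. Rescaled to the mitochondrial mRNA sum, mt-co2, mt-atp6, mt-nd4, mt-nd5 and mt-cyb were at -0.023, -0.19, -0.13, -0.19 and -0.13. Without wild-type pools 2 and 3, mt-nd2 was at 0.21 and mt-nd6 at 0.13. Without heterozygous pools 2 and 3, mt-nd1, mt-atp8, mt-atp6, mt-nd4l, mt-nd4, mt-nd5 and mt-cyb were at -0.093, -0.021, -0.37, -0.33, -0.31, -0.43 and -0.36. The cause was not tested.

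With 1 library left out, signs turned in 17 of 78 values. The range was -0.34 to 0.13 for mt-nd2, -0.10 to 0.19 for mt-atp6, -0.12 to 0.24 for mt-nd4, -0.16 to 0.22 for mt-nd5, -0.32 to 0.055 for mt-nd6 and -0.070 to 0.28 for mt-cyb. Members that kept their sign also moved, from 0.044 to 0.42 for mt-nd1, 0.013 to 0.49 for mt-nd4l, -0.33 to -0.029 for mt-nd3, 0.060 to 0.36 for mt-co2, 0.11 to 0.44 for mt-co3, 0.27 to 0.74 for mt-co1 and 0.35 to 0.74 for mt-atp8. The difference in the share of TPM, 0.619 percentage points, ran from 0.197 to 1.26 with 1 library left out, was 1.46 without wild-type pools 2 and 3, and turned to -0.283 without heterozygous pools 2 and 3.

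Over all genes limma called 227, and 132 with no filter, 117 at 5 TPM or more, and between 4 and 849 with 1 library left out. Without wild-type pools 2 and 3 it called 0, with 2087 at an unadjusted p under 0.05, and without heterozygous pools 2 and 3 it called 0, with 972; the lone library left in a genotype is assumed to vary like the other pools. Nuclear genes of mitochondria gave 0 to 5 calls with 1 library left out. With pool number as a replicate block limma called 25 genes. Deviations of same-numbered pools correlated at -0.27, 0.12 and -0.13, and only heterozygous pool 2 correlated best with the pool of its own number. These correlations cannot decide whether equal numbers mark a shared clutch or batch, because the pools also differ in content such as egg and globin RNA.

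The rescaling to the mitochondrial mRNA sum and the fit without heterozygous pools 2 and 3 were chosen after seeing the data. The share outside mitochondrial ribosomal RNA was not run. Depth is unknown from TPM.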
